A study of Mus musculus with 18 samples.

Results

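The interleukin-1 (IL-1) family and its receptors were followed through 18 RNA-seq libraries of mouse colon and colon organoids. The 9 genes *Il1a*, *Il1b*, *Il18*, *Il1rn*, *Il18bp*, *Il1r1*, *Il1rap*, *Il1rl1* and *Il1r2* were taken by symbol from the 36757 genes of the count table, and all 9 were found. The libraries came from C57BL/6 mice, aged 6 to 8 weeks when the models were started, in 3 models, with 3 libraries labelled wild type (RNF138fl/fl) and 3 labelled RNF138-/- in each model. In the colitis model, mice drank 2% dextran sulfate sodium (DSS) for 7 days and then water for 14 days, had 2 more such cycles, and were killed 4 weeks after the last DSS. In the colitis-associated cancer (CAC) model, an intraperitoneal dose of 10 mg/kg of the carcinogen azoxymethane (AOM) was given 4 days before the DSS cycles. The organoids were grown in matrigel from tumors of the CAC model, so all organoid and CAC groups shared AOM and DSS, and all colitis groups shared DSS. RNF138 is a RING finger ubiquitin ligase, and the comparison asked how the family's RNA differed with its loss along the course from colitis to cancer. The sources used here state neither the promoter or cell type in which the floxed gene was deleted nor whether replicates came from separate mice, so p-values measure the spread between libraries, which may in part be technical.

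IL-1α and IL-1β, encoded by *Il1a* and *Il1b*, both bind the receptor IL1R1, which then recruits the co-receptor IL1RAP and starts a MyD88 and IRAK cascade that ends in NF-κB and MAP kinase activity. IL1RN is an antagonist that occupies IL1R1 without recruiting the co-receptor, and IL1R2 is a decoy receptor that binds the ligand without a signalling domain. IL-18 is a related cytokine that is made abundantly by gut epithelium and is neutralised by IL18BP, and IL1RL1 (ST2) is the receptor for IL-33. IL-1β and IL-18 are made as precursors that inflammasome caspases cleave, so RNA levels do not give the amount of active cytokine.

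*Il1a* (ENSMUSG00000027399.1, chromosome 2, 129299610 to 129309972, minus strand) and *Il1b* (ENSMUSG00000027398.13, chromosome 2, 129364570 to 129371139, minus strand) are neighbours in mm10. The antagonist gene *Il1rn* (ENSMUSG00000026981.15, chromosome 2, 24336853 to 24351494, plus strand) lies elsewhere on the same chromosome. *Il1r2* (ENSMUSG00000026073.13, 40074079 to 40125231), *Il1r1* (ENSMUSG00000026072.12, 40225080 to 40317257) and *Il1rl1* (ENSMUSG00000026069.15, 40429570 to 40465415) stand in one receptor cluster on the plus strand of chromosome 1, with *Il1rl2* between *Il1r1* and *Il1rl1*. *Il1rap* (ENSMUSG00000022514.14, 26581704 to 26730117, plus strand) is on chromosome 16, *Il18* (ENSMUSG00000039217.13, 50554827 to 50581840, plus strand) on chromosome 9 and *Il18bp* (ENSMUSG00000070427.4, 102014885 to 102018690, minus strand) on chromosome 7. The counts cover whole genes, so membrane and soluble forms of *Il1rl1*, *Il1r2* and *Il1rap*, and secreted and intracellular forms of *Il1rn*, were not told apart. Whether the counting used strand is not given in the sources used here, so reads of *Il1b* cannot be told apart from those of the antisense gene *Il1bos*, nor reads of *Il18* from the overlapping *Bco2* and *Tex12*, and the same holds for *Il18bp* with *Numa1*, *Il1a* with *Gm14023*, *Il1rap* with *Gm20319* and *Il1r2* with *Gm16894*. *Il1r1* overlaps *Gm38070* and *Il1r2* overlaps *Gm37347* on the same strand, where a strand setting would not separate the reads.

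The 250 bases before the RefSeq start (GRCm38.p6) of the neighbouring agonists and of the first start of their antagonist are shown because their products bind the same receptor. Capitals mark the TATA letters TATAAA (searched on the plus strand), the AP-1 letters TGANTCA and the κB-like letters GGGNNNNNCC (both searched on both strands).
Il1a, chr2:129309973-129310222, minus strand: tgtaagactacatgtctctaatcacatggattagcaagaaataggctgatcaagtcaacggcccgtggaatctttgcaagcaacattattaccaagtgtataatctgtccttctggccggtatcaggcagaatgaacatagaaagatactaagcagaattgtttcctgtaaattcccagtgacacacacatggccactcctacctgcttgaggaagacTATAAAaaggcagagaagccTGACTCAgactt
Il1b, chr2:129371140-129371389, minus strand: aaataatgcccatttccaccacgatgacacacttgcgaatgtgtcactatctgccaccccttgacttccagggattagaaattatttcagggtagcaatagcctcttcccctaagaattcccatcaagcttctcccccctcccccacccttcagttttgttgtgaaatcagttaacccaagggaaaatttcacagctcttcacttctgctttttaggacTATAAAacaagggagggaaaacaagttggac
Il1rn, chr2:24336610-24336859, plus strand: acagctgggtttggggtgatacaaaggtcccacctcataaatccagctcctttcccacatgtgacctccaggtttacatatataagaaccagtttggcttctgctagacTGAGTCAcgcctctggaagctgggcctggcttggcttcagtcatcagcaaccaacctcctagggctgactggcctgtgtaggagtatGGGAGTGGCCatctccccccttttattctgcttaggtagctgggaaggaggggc
The TATA letters began 32 bases before the start in *Il1a* and 31 bases before it in *Il1b*, and 7.6% of 32851 promoters of the same table hold them. The *Il1a* window also had the AP-1 letters 12 bases before the start, and the *Il1rn* window had them 141 bases before it, beside 6.7% of all promoters. The κB-like letters stood 54 bases before the *Il1rn* start and in 45.8% of all promoters, and were not in the other 2 windows. These matches describe letters and say nothing about the factors.

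Depth lay between 11514716 and 24390082 counts per library. *Rnf138* itself, the targeted gene, was not lower in the libraries labelled RNF138-/-. In CPM (counts relative to the TMM-scaled library total), it had 19.6 ± 4.95 in RNF138fl/fl and 18.8 ± 0.760 in RNF138-/- libraries of colitis and 48.9 ± 9.79 and 46.9 ± 3.81 in the organoids (SD, n = 3). In CAC it was higher in the RNF138-/- libraries, at 43.6 ± 3.41 against 25.4 ± 3.43 CPM (log2 fold change 0.72, SE 0.14, edgeR adjusted p = 0.0426), so genotypes are given below as labelled. The deleted exons are not given in the sources used here, so a count over the whole gene may not check the labels. The 3 organoid libraries labelled RNF138fl/fl held *Xist* (391 to 464 CPM) and no Y-linked counts, and the 3 labelled RNF138-/- the reverse (242 to 281 CPM of Y-linked genes), so sex and genotype cannot be told apart there. All 12 tissue libraries held Y-linked counts (114 to 229 CPM). Tissue markers moved with the label in CAC. The sum of 5 smooth muscle markers was 1994 to 7417 CPM in RNF138fl/fl libraries and 60.6 to 148 in those labelled RNF138-/-, that of 6 B and plasma cell markers 1490 to 2259 against 124 to 213, and that of 7 intestinal epithelial markers 8163 to 17418 against 5583 to 6979. In the organoids all 7 intestinal epithelial markers had counts, with *Epcam* at 827 to 1624 CPM, and against CAC tissue 4 of the 7 were lower in RNF138fl/fl libraries (median log2 fold change -2.50, the intestinal factor *Cdx2* among them at -3.74) and 2 in RNF138-/- (median -0.55), with 0 higher. The organoids also held 9097 to 49682 CPM of 6 fibroblast markers, against 924 to 1733 in all 12 tissue libraries. In bulk RNA, fewer cells of a type and less RNA per cell cannot be told apart.

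**Figure D1:**
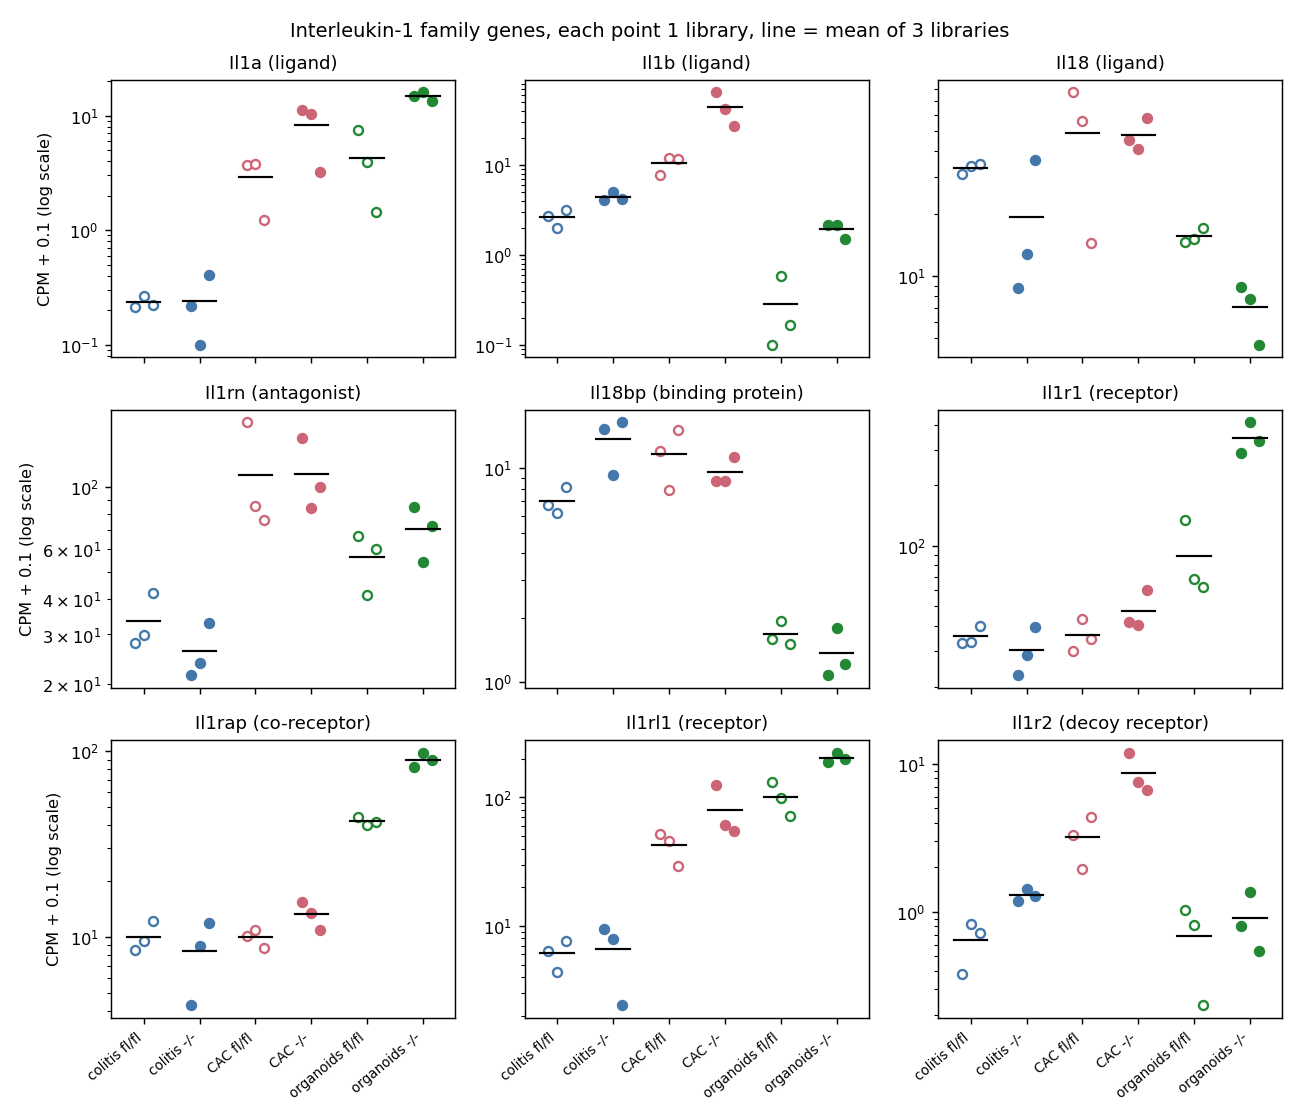
CPM plus 0.1 (log axis) of the 9 genes in each of 18 libraries, with a line at the mean of 3 libraries for each model and genotype. Il1b was highest in the CAC libraries labelled RNF138-/- (27.1 to 64.2 CPM), Il1r1 and Il1rap in the organoids labelled RNF138-/- (288 to 409 and 82.5 to 98.1 CPM), and Il18bp was below 2 CPM in all 6 organoid libraries.

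A gene was called at an adjusted p under 0.05 and at least a 2-fold change in edgeR's quasi-likelihood test over all genes. The share of all genes called sets the background. Groups that did not overlap are described as such. For 3 libraries against 3 this alone reaches p = 0.1 (exact permutation test), and its share over all genes was not counted. Between genotypes in colitis, 0 of the 8 members tested were called, beside 0.018% of all genes called higher and 0.0722% lower, and DESeq2 also called 0. With the replicate number as a block, members called stayed at 0 while calls over all genes went from 15 to 89. In colitis 3 members, *Il1b*, *Il18bp* and *Il1r2*, had an unadjusted p under 0.05, as had 1731 of the 16623 genes tested. In CAC 1 of 9 members, *Il1b*, was higher and 0 were lower, where 0.546% and 4.83% of all genes were so called. Organoids gave 4 members higher, *Il1a*, *Il1b*, *Il1r1* and *Il1rap*, and *Il18* lower, where 7.94% and 7.04% of all genes were so called. *Il1b* passed the filter on low counts there only through the RNF138-/- libraries, so its call could only be higher. From colitis to CAC, 5 of 9 rose in RNF138fl/fl libraries and 6 of 9 in those labelled RNF138-/-, and 0 fell in either (edgeR). All genes were called higher in 9.78% and 17.5% and lower in 3.81% and 19.6% for these comparisons. Both member counts include *Il1a*, which had 0 to 6 counts in the colitis libraries. It entered the test only through other models, so its rise was fixed by the filter on low counts. From CAC tissue to organoids, 3 members rose and 4 fell in each genotype, beside 17.5% higher and 26.8% lower of all genes in RNF138fl/fl and 17.9% and 26.5% in RNF138-/-. The genotype effect differed between CAC and colitis for 1 member, in the negative direction (all genes 2.57% positive, 9.37% negative), and between organoids and CAC for 1 member, in the positive direction (all genes 11.4% positive, 7.54% negative). CAC groups enter both kinds of comparison between models, so these share libraries.

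*Il1b*, the main inducible agonist of myeloid cells, was the member called between genotypes in CAC. It had 7.69, 11.8 and 11.6 CPM in RNF138fl/fl libraries and 64.2, 41.8 and 27.1 in those labelled RNF138-/-. The groups did not overlap, and every RNF138-/- library was well above the highest RNF138fl/fl library. The rise was 4.13-fold (log2 fold change 2.05, SE 0.36, edgeR adjusted p = 0.0343). The direction held with each library left out, with log2 fold changes of 1.68 to 2.32, while the call was lost without RNF138fl/fl replicate 1 or 2 or RNF138-/- replicate 1 or 2, at adjusted p from 0.0529 to 0.138. It was lost as well with a covariate of Y-linked genes (log2 fold change 2.45, adjusted p = 0.215), under which 0 genes in all were called in CAC, and with the replicate number as a block (1.98, adjusted p = 0.0586). The sum of 6 neutrophil markers moved with *Il1b*, at 52.0 to 103 CPM in RNF138fl/fl libraries and 335, 258 and 147 in RNF138-/- replicates 1, 2 and 3. The sum of 7 macrophage and monocyte markers overlapped, at 306 to 687 against 593 to 855 CPM. The part of these cells in the *Il1b* difference was not tested.

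In colitis *Il1b* was low. It had 2.63, 1.91 and 3.03 CPM in RNF138fl/fl libraries and 3.95, 4.92 and 4.13 in RNF138-/-, and the groups did not overlap. The 1.71-fold difference did not pass the test (log2 fold change 0.78, SE 0.29, edgeR adjusted p = 0.409). In the organoids *Il1b* was near the limit of detection, with 0, 6 and 1 counts in RNF138fl/fl libraries (0 to 0.479 CPM) and 29, 39 and 19 counts in RNF138-/- (1.42 to 2.06 CPM). It rose with the RNF138-/- label (log2 fold change 3.41, SE 0.76, edgeR adjusted p = 0.0115). It passed the filter on low counts only through the RNF138-/- libraries, so the direction was fixed and the rise is a description. The size of the fold rests on the few RNF138fl/fl counts, with log2 fold changes of 2.77 without RNF138fl/fl replicate 1 and 5.54 without replicate 2. The sum of the 7 macrophage and monocyte markers moved the same way in the organoids, at 49.8 to 68.2 against 134 to 186 CPM, among them *Lyz2* at 4.07 to 7.56 against 72.4 to 111, and its part was not tested. Over the 6 groups, *Il1b* ordered from CAC RNF138-/- (44.4 ± 18.7 CPM, SD, n = 3) through CAC RNF138fl/fl (10.3 ± 2.30), colitis RNF138-/- (4.33 ± 0.515), colitis RNF138fl/fl (2.52 ± 0.569) and organoids RNF138-/- (1.84 ± 0.365) to organoids RNF138fl/fl (0.182 ± 0.259). Of neighbours in that order, only the colitis RNF138fl/fl and organoid RNF138-/- libraries overlapped.

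*Il1a*, the agonist that acts without processing and is made by epithelial and stromal cells as well, was nearly undetected in colitis, with 2, 3 and 2 counts in RNF138fl/fl libraries and 2, 0 and 6 in RNF138-/-, and did not enter the genotype test there. In CAC it had 3.63, 3.72 and 1.14 CPM in RNF138fl/fl libraries and 11.1, 10.2 and 3.12 in RNF138-/-. Replicate 3 was the lowest in each genotype, and the groups overlapped. The 2.74-fold difference did not pass (log2 fold change 1.45, SE 0.61, edgeR adjusted p = 0.146), and passed with the replicate number as a block (1.46, adjusted p = 0.0397). In the organoids *Il1a* had 7.38, 3.83 and 1.35 CPM against 14.7, 15.8 and 13.2, all RNF138-/- libraries above all RNF138fl/fl libraries. It rose 3.36-fold (log2 fold change 1.75, SE 0.46, edgeR adjusted p = 0.0221), with log2 fold changes of 2.49 without RNF138fl/fl replicate 1 and 1.32 without replicate 3. This call was lost without RNF138fl/fl replicate 2 or any 1 of the RNF138-/- libraries, at adjusted p from 0.0559 to 0.0718. Unlike *Il1b*, *Il1a* was not called between CAC tissue and organoids in either genotype (adjusted p = 0.444 and 0.214), which does not show that its levels were equal.

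*Il18*, known from gut epithelium, was the most abundant of the 3 ligands per length in the mean of 5 of the 6 groups. In RNF138-/- organoids *Il1a* (7.38 ± 0.663 CPM per kilobase of exon) and *Il18* (6.75 ± 2.09) overlapped. *Il18* had 32.2 ± 1.84 CPM per kilobase in colitis RNF138fl/fl libraries (SD, n = 3), above *Il1b* at 1.32 ± 0.299 and *Il1a* at 0.0682 ± 0.0151. In colitis it had 31.0, 33.9 and 34.6 CPM in RNF138fl/fl libraries and 8.62, 12.7 and 36.4 in RNF138-/-. Replicate 3 of RNF138-/- stood above every RNF138fl/fl library and the other 2 below, and the difference did not pass (log2 fold change -0.78, SE 0.48, edgeR adjusted p = 0.649). Without that library, *Il18* was called lower (log2 fold change -1.65, adjusted p = 0.0217). In CAC the RNF138fl/fl libraries spread from 14.4 in replicate 3 through 55.7 to 77.0 CPM, around the RNF138-/- libraries at 41.2 to 57.8, and no difference passed (log2 fold change -0.08, SE 0.53, edgeR adjusted p = 0.931). In both groups with such a spread, *Il18* ran opposite to the smooth muscle markers, whose sum was 12700, 8059 and 4043 CPM in colitis RNF138-/- replicates 1 to 3 and 1994, 3013 and 7417 in CAC RNF138fl/fl. The part of muscle in these libraries was not tested. In the organoids, *Il18* had 14.5, 14.9 and 16.9 CPM in RNF138fl/fl libraries and 8.70, 7.62 and 4.55 in RNF138-/-, with no overlap. It fell 2.27-fold (log2 fold change -1.18, SE 0.24, edgeR adjusted p = 0.00811), and thus went opposite to both IL-1 agonists. Beside it, the intestinal epithelial sum was 6425 to 7776 CPM in RNF138fl/fl and 4384 to 6463 in RNF138-/- organoids, and these ranges overlapped. *Cdx2* was called lower (1 of 7), while 3 of 7 had positive log2 fold changes, with a median of -0.13. The fibroblast sum was 9097 to 23238 and 40427 to 49682. Their part was not tested. In the fit of all 18 libraries the organoid *Il18* difference did not pass (log2 fold change -1.15, adjusted p = 0.139), and without RNF138-/- replicate 3 it was below 2-fold (-0.95).

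**Figure D2:**
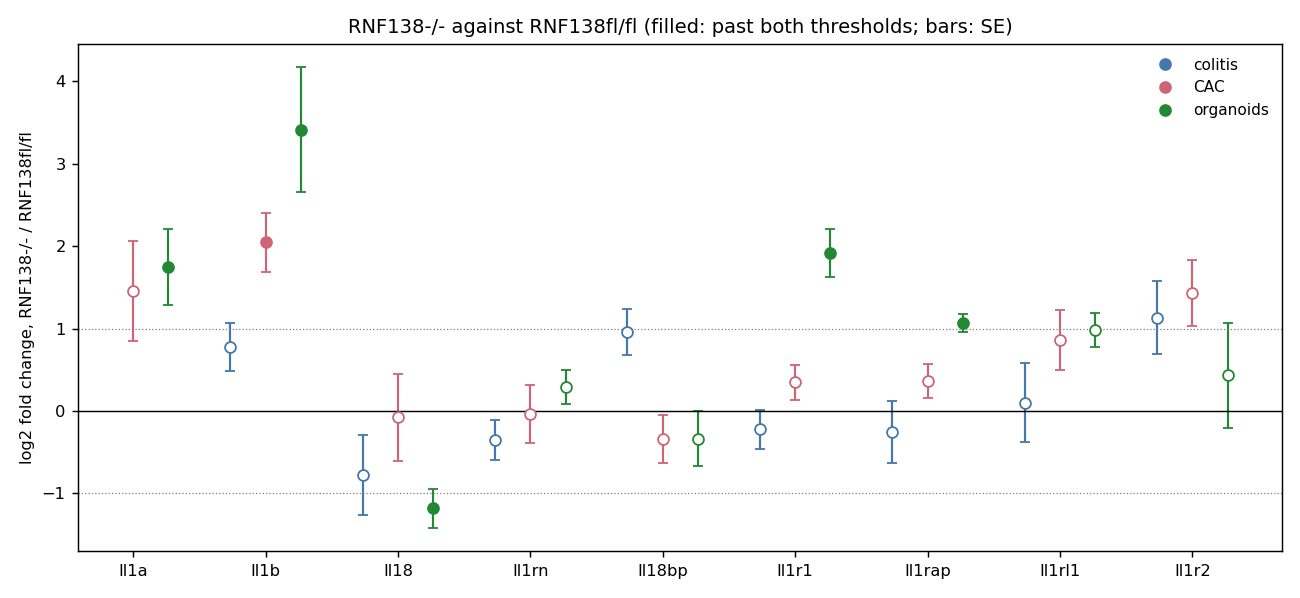
Log2 fold change of RNF138-/- over RNF138fl/fl for 9 genes in 3 models, with SE bars and dotted lines at 2-fold. Filled points passed both thresholds, which were Il1b in CAC and Il1a, Il1b, Il18, Il1r1 and Il1rap in the organoids, and Il1a was not tested in colitis.

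Of the soluble inhibitors, the antagonist *Il1rn* did not follow *Il1b* between genotypes. In CAC it had 168, 85.6 and 76.3 CPM in RNF138fl/fl libraries and 149, 83.8 and 99.8 in RNF138-/-. The groups overlapped throughout, and the log2 fold change was -0.04 (SE 0.35, edgeR adjusted p = 0.947). Its colitis values, 27.9, 29.8 and 42.1 against 21.5, 23.7 and 32.9 CPM, also overlapped (log2 fold change -0.35, SE 0.25, adjusted p = 0.693, edgeR), as did the organoid values, 67.0, 41.4 and 60.0 against 84.8, 54.1 and 72.5 (log2 fold change 0.29, SE 0.21, adjusted p = 0.302, edgeR). From colitis to CAC *Il1rn* rose 3.31-fold in RNF138fl/fl and 4.25-fold in RNF138-/- libraries (adjusted p = 0.00132 and 7.38e-05).

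*Il18bp*, the IL-18 binding protein, was higher in colitis RNF138-/- libraries, at 15.1, 9.17 and 16.3 CPM, than in RNF138fl/fl libraries, at 6.65, 6.07 and 8.11. The groups did not overlap, and the 1.95-fold difference did not pass the test over all genes (log2 fold change 0.96, SE 0.28, edgeR adjusted p = 0.274). In CAC the values were 11.9, 7.81 and 15.1 against 8.61, 8.58 and 11.2 CPM and overlapped (log2 fold change -0.34, SE 0.29, adjusted p = 0.422, edgeR). In the organoids *Il18bp* was at 1.42 to 1.84 against 0.983 to 1.69 CPM (log2 fold change -0.34, SE 0.34, adjusted p = 0.455, edgeR). The genotype effect on *Il18bp* was lower in CAC than in colitis (difference of log2 fold changes -1.25, SE 0.40, edgeR adjusted p = 0.0484). Leaving out any 1 of 10 among the 12 tissue libraries ended that call, at adjusted p up to 0.133, as did scaling by totals (0.101), no filter on low counts (0.0907) and the replicate block (0.0533). T cell markers moved with it in colitis, the sum of 6 markers being 14.6 to 15.9 CPM in RNF138fl/fl and 27.6 to 34.6 in RNF138-/- libraries, and their part was not tested.

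Among the receptors, *Il1r1* had the largest fold between genotypes in the organoids, and *Il1rap* the lowest adjusted p. It had 135, 68.5 and 62.6 CPM in RNF138fl/fl libraries and 288, 409 and 330.2 in RNF138-/-, so the groups lay far apart. The rise was 3.77-fold (log2 fold change 1.91, SE 0.29, edgeR adjusted p = 0.00338), and the call held whichever organoid library was omitted. In tissue, *Il1r1* had 32.8, 33.4 and 39.9 against 22.7, 28.6 and 39.4 CPM in colitis and 30.0, 43.0 and 34.5 against 41.8, 40.2 and 60.0 in CAC. These groups overlapped, and neither passed (log2 fold changes -0.22, SE 0.24, and 0.35, SE 0.22, edgeR adjusted p = 0.809 and 0.287). The genotype effect was larger in the organoids than in CAC (difference of log2 fold changes 1.55, SE 0.39, edgeR adjusted p = 0.0104), also without any single library (1.38 to 1.99). The sum of 6 fibroblast markers moved with *Il1r1* in the organoids, at 9097 to 23238 CPM in RNF138fl/fl and 40427 to 49682 in RNF138-/- libraries. RNF138fl/fl replicate 1 was the highest of its group in both. The part of fibroblasts in the *Il1r1* difference was not tested.

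*Il1rap*, the co-receptor shared by the IL-1, IL-33 and IL-36 receptors, had the smallest SE of the members in the organoid comparison. It had 44.0, 39.98 and 41.4 CPM in RNF138fl/fl libraries and 82.5, 98.1 and 89.2 in RNF138-/-, with no overlap. It rose 2.10-fold (log2 fold change 1.07, SE 0.11, edgeR adjusted p = 0.00101), and fell below 2-fold when libraries were scaled by their totals alone (log2 fold change 0.86). The fibroblast markers given beside *Il1r1* moved with the label here too, 5 of 6 being called higher, and their part in the *Il1rap* and *Il1rl1* values was not tested. In colitis it had 8.38, 9.38 and 12.01 against 4.19, 8.87 and 11.8 CPM (log2 fold change -0.26, SE 0.38, edgeR adjusted p = 0.877). In CAC the values were 10.0, 10.8 and 8.62 against 15.3, 13.4 and 10.7 (log2 fold change 0.37, SE 0.21, edgeR adjusted p = 0.246). In each tissue the genotypes overlapped. Taken by replicate number in colitis, where pairing is uncertain, *Il1rn*, *Il1r1* and *Il1rap* were each lower in RNF138-/- in 3 of 3 pairs. *Il1b*, *Il18bp* and *Il1r2* were each higher in 3 of 3. None of these passed with the block. The share of all genes with such pairs was not counted, so this is a description.

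*Il1rl1*, the IL-33 receptor, had 132, 99.2 and 71.4 CPM in RNF138fl/fl organoids and 191, 223 and 198 in RNF138-/- organoids, with no overlap. Its adjusted p passed at 0.00921 (edgeR) while its 1.97-fold difference (log2 fold change 0.98, SE 0.20) was just under the threshold, and with RLE size factors, DESeq2 or the replicate block it was just over (log2 fold changes 1.00 to 1.02). In CAC it had 52.2, 45.8 and 29.4 against 124, 61.0 and 54.6 CPM, again without overlap, and did not pass (log2 fold change 0.86, SE 0.37, edgeR adjusted p = 0.153). In colitis the values were 6.31, 4.27 and 7.49 against 9.39, 7.80 and 2.32 CPM, on both sides of each other (log2 fold change 0.10, SE 0.48, edgeR adjusted p = 0.968). Mast cell markers (*Cpa3*, *Mcpt1* and 5 others), of a cell type known to carry ST2, summed to 54.3 to 457 CPM in CAC RNF138fl/fl and 25.5 to 212 in CAC RNF138-/- libraries. In the organoids they were 12.8 to 20.0 CPM in RNF138fl/fl and 3.12 to 4.35 in RNF138-/- libraries, mostly *Tpsb2* (12.1 ± 3.35 and 1.87 ± 0.402 CPM, SD, n = 3) and *Ms4a2* (3.93 ± 0.598 and 1.74 ± 0.556), with *Cpa3* and *Fcer1a* at 0. The part of mast cells was not tested.

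The decoy receptor *Il1r2* was at or below 11.8 CPM in every library. In CAC it had 3.20, 1.83 and 4.26 CPM in RNF138fl/fl libraries and 11.8, 7.49 and 6.56 in RNF138-/-, with no overlap. The 2.70-fold difference fell short of the threshold (log2 fold change 1.43, SE 0.40, edgeR adjusted p = 0.0708), and passed with DESeq2 (adjusted p = 0.00766), in the fit of all 18 libraries (0.0331), with scaling by totals (0.0475) and without RNF138fl/fl replicate 3 (0.0486). In colitis it had 5, 13 and 10 counts against 18, 22 and 23, also without overlap (log2 fold change 1.13, SE 0.44, edgeR adjusted p = 0.432). In the organoids it had 16, 9 and 2 counts against 10, 24 and 6, and the groups overlapped (log2 fold change 0.43, SE 0.63, edgeR adjusted p = 0.621).

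From colitis to CAC the agonist *Il1b*, the antagonist and the IL-33 and decoy receptors rose in both genotypes. In RNF138fl/fl libraries the rise was 4.10-fold for *Il1b* (SE 0.43 on the log2 scale), 7.06-fold for *Il1rl1* (SE 0.44) and 5.59-fold for *Il1r2* (SE 0.54). Their edgeR adjusted p-values ran from 0.000372 to 0.00431. In RNF138-/- libraries the rise was 10.2-fold for *Il1b* (SE 0.44), 12.3-fold for *Il1rl1* (SE 0.45) and 7.17-fold for *Il1r2* (SE 0.51). Their edgeR adjusted p-values ran from 1.36e-05 to 0.000255. *Il1a* stood 20.3-fold higher in RNF138fl/fl (SE 0.82), resting on 2 or 3 counts in each colitis library. In RNF138-/- it stood 51.9-fold higher (SE 0.80), with 0 to 6 counts in the colitis libraries. That log2 fold change of 5.70 was 5.08 to 6.86 with single libraries left out. *Il1a* passed the filter on low counts only through groups other than colitis, so its rise is a description. *Il18* rose 2.50-fold in RNF138-/- libraries alone by the thresholds (edgeR adjusted p = 0.0342), a call lost without colitis replicate 1 or 2 or CAC replicate 1 or 3 of that genotype (adjusted p 0.0549 to 0.159). Its log2 fold change of 1.32 was 0.97 without colitis replicate 1 and 2.11 without replicate 3. The difference between genotypes did not pass for *Il18* (adjusted p = 0.505) or *Il1b* (adjusted p = 0.142). *Il1r1* and *Il1rap*, which form the signalling pair, stayed below 2-fold in both genotypes, with log2 fold changes of 0.02 and -0.01 in RNF138fl/fl (adjusted p = 0.973 and 0.986) and 0.65 and 0.66 in RNF138-/- (0.0595 and 0.0434). The neutrophil markers rose from 3.30 to 7.02 CPM over the colitis libraries to 52.0 to 335 over the CAC libraries, and the mast cell markers from 0.929 to 3.71 to 25.5 to 457. The sum of 8 squamous epithelial markers went from 1.61 to 10.8 CPM to 4.07 to 137. Of the 5 tested, 4 were called higher in each genotype and 1 lower in RNF138-/-. Only 1 of the 8 passed the filter on low counts in the colitis fit, so higher calls among the others are not read. The part of these cells in the rise was not tested. No batch is given in the labels, so model and any batch cannot be told apart.

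From CAC tissue to organoids 4 members fell and 3 rose in each genotype, while *Il1a* (log2 fold changes 0.55 and 0.85) and *Il1rn* (-0.97 and -0.65, adjusted p = 0.0125 and 0.0766) were not called. *Il1rn* was called lower in both genotypes with scaling by totals (-1.16 and -1.26), and in RNF138fl/fl without CAC replicate 2 or 3 or organoid replicate 1 or 3 (-1.04 to -1.18). *Il1b* fell 61.4-fold in RNF138fl/fl and 23.9-fold in RNF138-/- libraries (log2 SE 0.60 and 0.47, edgeR adjusted p = 9.25e-07 and 8.81e-07). The RNF138fl/fl fold rests on 0, 6 and 1 organoid counts, and its log2 fold change of -5.94 became -5.27 without organoid replicate 1 and -8.07 without replicate 2. *Il18* fell 3.18-fold and 6.88-fold (adjusted p = 0.00951 and 0.000331), *Il18bp* 7.28-fold and 7.37-fold (2.08e-06 and 1.63e-06) and *Il1r2* 5.09-fold and 10.4-fold (0.00146 and 5.29e-05), all by edgeR. The receptors *Il1r1*, *Il1rap* and *Il1rl1* rose instead. The rise of *Il1r1* was 2.48-fold and 7.23-fold (adjusted p = 0.000876 and 8.7e-07), that of *Il1rap* 4.24-fold and 6.85-fold (9.66e-06 and 5.49e-07) and that of *Il1rl1* 2.37-fold and 2.55-fold (0.0139 and 0.00848), by edgeR. In RNF138fl/fl the calls for *Il18* (without CAC replicate 1, adjusted p = 0.0594), *Il1r1* (without organoid replicate 1, log2 fold change 0.87) and *Il1rl1* (without CAC replicate 3 or organoid replicate 1, adjusted p = 0.0560 and 0.0645) were lost when single libraries were left out, and with scaling by totals *Il1rl1* in RNF138-/- lost its call (log2 fold change 0.74, adjusted p = 0.0929). Beside these values, the neutrophil sum was 0.958 to 2.91 CPM and the T cell sum 0.540 to 1.96 CPM in the organoids, with *Retnlg* and *Cd3e* at 0 in all 6 libraries, and the fibroblast sum was the raised one given above.

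**Figure D3:**
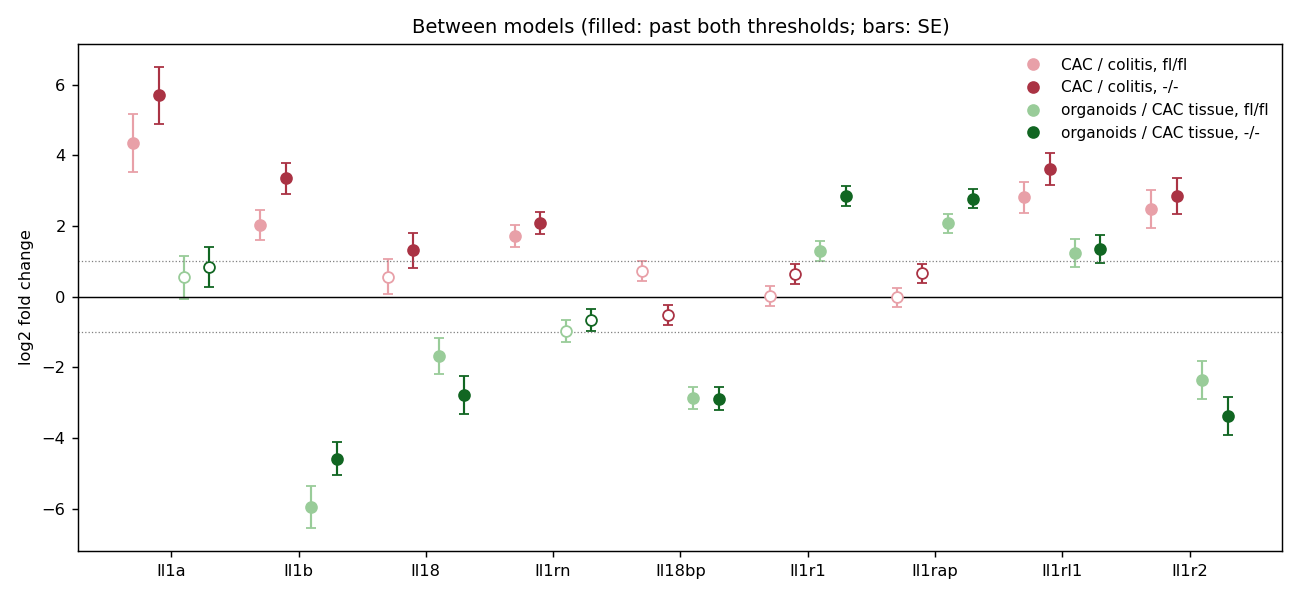
Log2 fold change of 9 genes between models, for CAC over colitis (red) and organoids over CAC tissue (green) in each genotype, with SE bars, dotted lines at 2-fold and filled points past both thresholds. Il1b, Il18, Il18bp and Il1r2 fell from CAC tissue to organoids in both genotypes, while Il1r1, Il1rap and Il1rl1 rose.

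Levels compared between genes per kilobase of exon changed rank between models. In CAC RNF138fl/fl libraries *Il18* (47.6 ± 30.9 CPM per kilobase, SD, n = 3) and *Il1rn* (19.9 ± 9.17) led and overlapped, above *Il1rl1* (6.16 ± 1.71), *Il1r1* (5.63 ± 1.04) and *Il1b* (5.43 ± 1.21), whose ranges overlapped. In CAC RNF138-/- libraries *Il1b* was at 23.3 ± 9.79, beside *Il1rn* at 20.0 ± 6.09. In RNF138-/- organoids *Il1r1* (53.8 ± 9.71) and *Il1rl1* (29.6 ± 2.51) led, with *Il18* at 6.75 ± 2.09 and *Il1b* at 0.965 ± 0.191. *Il1rap* was at or below 1.16 CPM per kilobase in the means of all 4 tissue groups.

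Ratios within a library do not depend on scaling between libraries, and were taken as log2 of counts plus 0.5. The ratio of *Il1b* to its antagonist *Il1rn* was higher in every RNF138-/- library than in every RNF138fl/fl library of the same model. In CAC it was -4.45, -2.86 and -2.72 against -1.21, -1.003 and -1.88, a difference of 1.98. The differences were 1.15 in colitis and 3.68 in the organoids, where the value rests on 0, 6 and 1 *Il1b* counts and was 2.54 without RNF138fl/fl replicate 1, 4.97 without replicate 2 and 3.19 with 1 added to the counts. The exact permutation test (two-sided, n = 3) gave p = 0.1 in each model, the smallest value 3 libraries against 3 allow, and 0.2 after adjustment over the 12 ratio tests. The ratio of *Il1r1* to *Il1r2* was lower with the RNF138-/- label by 1.45 in colitis (-1.45, from 6.05 ± 0.647 to 4.597 ± 0.368, exact permutation p = 0.1) and by 1.11 in CAC (-1.11, exact permutation p = 0.2), and higher by 1.38 in the organoids (exact permutation p = 0.2). The ratio of *Il18* to *Il18bp* was 2.22, 2.48 and 2.09 in colitis RNF138fl/fl libraries and -0.81, 0.46 and 1.16 in RNF138-/-, with no overlap (difference -1.99, exact permutation p = 0.1, adjusted 0.2). In CAC RNF138fl/fl replicate 3 was at -0.06 and the others at 2.69 and 2.83, around the RNF138-/- libraries at 2.26 to 2.39 (exact permutation p = 1). The ratio of *Il1rn* to *Il1r1* was lower in RNF138-/- organoids, -1.76, -2.92 and -2.19 against -1.01, -0.72 and -0.06 (difference -1.69, exact permutation p = 0.1, adjusted 0.2), and overlapped in both tissues.

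**Figure D4:**
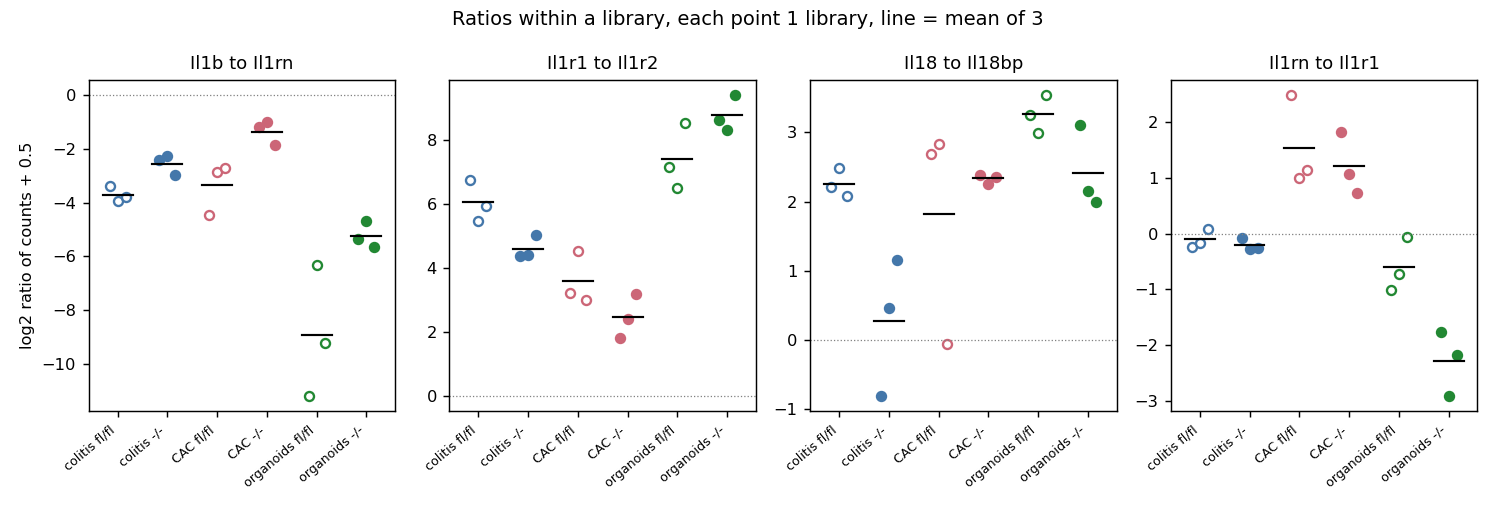
Log2 ratios of counts plus 0.5 within each of 18 libraries for 4 pairs, with a line at the mean of 3 libraries. The Il1b to Il1rn ratio was higher in each RNF138-/- library than in each RNF138fl/fl library of its model, by 1.15, 1.98 and 3.68 on average in colitis, CAC and organoids.

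The pathway around the members was counted from lists chosen with earlier results known. Of 23 genes that IL-1 is known to induce, among other signals, 0 of 16 tested were called between genotypes in colitis (7 at an unadjusted p under 0.05 by edgeR, beside the 1731 of all 16623 genes), 1 of 21 was higher in CAC, and 10 of 22 were higher and 1 lower in the organoids. Their median log2 fold changes were 0.51, 1.37 and 0.95, beside 0.02, 0.01 and -0.04 over all genes tested. Of all genes, 0.018%, 0.546% and 7.94% were called higher in the same order, and 0.0722%, 4.83% and 7.04% lower. In CAC the acute phase gene *Saa3* rose (log2 fold change 1.46, edgeR adjusted p = 0.0381). That call was lost with the covariate of Y-linked genes and without RNF138-/- replicate 1 or 2, where 0 genes in all were called. In the organoids the granulocyte growth factor *Csf3* (log2 fold change 3.07, adjusted p = 0.00333), the cytokine *Lif* (1.72, 0.00371) and the collagenase *Mmp13* (1.59, 0.0370) rose, and the siderophore binder *Lcn2* fell (-1.02, 0.0264), all by edgeR. From colitis to CAC 11 of 22 rose in RNF138fl/fl and 14 of 22 in RNF138-/-, beside 9.78% and 17.5% of all genes. Only 16 of the 23 passed the filter on low counts in the colitis fit. The others entered through other models, so a rise of theirs was fixed by the filter and is not read. Largest in both were the neutrophil chemokines *Cxcl5* (7.94 and 7.07) and *Cxcl2* (5.44 and 8.40) and the protease *Mmp10* (5.40 and 6.50), as log2 fold changes. *Cxcl2* was at 0 to 0.281 CPM and *Cxcl5* at 0.0562 to 1.74 CPM in the colitis libraries, so their rises rest on few counts and are descriptions. From CAC tissue to organoids 16 and 18 of 22 rose and 1 and 2 fell. Of all genes, 17.5% and 17.9% were called higher and 26.8% and 26.5% lower. *Il6* (9.27 and 7.61) and *Ccl2* (7.98 and 7.61) were at the head, and *Nos2* was lower (-2.73 and -3.74). *Il6* averaged 181 CPM in RNF138fl/fl organoids at a 617-fold change, so that fold rests on few CAC counts. The listed genes are also known from fibroblasts, whose markers rose in the organoids, and that part was not tested.

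Inflammasome and release genes were counted over the same comparisons. Between genotypes in CAC, the sensor *Nlrp6* (log2 fold change -2.40, edgeR adjusted p = 0.0363) and the adaptor *Pycard* (-1.86, 0.0409) were lower, 2 of 14 genes, and 0 were higher (median -0.17). Of all genes 4.83% were called lower. Both calls were lost with the covariate of Y-linked genes and without RNF138-/- replicate 1 or 2, where 0 genes in all were called. The summed intestinal epithelial markers were also lower with the label in CAC, as given above. From colitis to CAC 1 of 14 rose and 1 fell in RNF138fl/fl, and 2 rose and 4 fell in RNF138-/-, where *Nlrp6* (-2.82), *Pycard* (-2.23) and *Casp1* (-1.58) were lower. Of all genes 3.81% and 19.6% were called lower and 9.78% and 17.5% higher. From CAC tissue to organoids 11 of 14 fell in RNF138fl/fl and 9 of 14 in RNF138-/-, beside 26.8% and 26.5% of all genes. Among them was *Casp1*, the IL-1β converting enzyme (-3.09 and -2.13). *Ninj1*, which ruptures the plasma membrane, rose (1.85 and 1.57). In the organoids the ATP receptor *P2rx7* (1.70, adjusted p = 0.00239) and *Nlrp3* (3.09, adjusted p = 0.00359) were higher with the RNF138-/- label. These were 2 of 11 tested, beside 7.94% of all genes. *Nlrp3*, an inflammasome sensor below the 5 CPM set for naming, is given after its values were seen. It had 0.135 to 0.479 CPM in RNF138fl/fl organoids and passed the filter on low counts only through RNF138-/-, so its rise is a description. In colitis 0 of 14 were called by edgeR (1 at an unadjusted p under 0.05).

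Of 6 other family ligands, 0 were called between genotypes in any model (1, 4 and 1 tested in colitis, CAC and organoids, with 0, 2 and 1 at an unadjusted p under 0.05 by edgeR, beside 6001 of all 17752 genes in CAC and 7250 of 15294 in the organoids), and from colitis to CAC *Il33* rose in both genotypes, as given next. *Il36a*, *Il36b* and *Il36g* entered that test only through the CAC groups, having means of at most 0.392 CPM in colitis, so a rise among them was fixed by the filter on low counts and is not read. Of 4 other receptors tested, 2 rose from colitis to CAC in each genotype, and between genotypes 1 was higher and 1 lower in the organoids. *Il33*, the ligand of *Il1rl1*, had 3.96 ± 1.37 CPM in colitis RNF138fl/fl and 15.0 ± 9.003 in CAC RNF138fl/fl libraries (SD, n = 3), a log2 fold change of 1.94 (edgeR adjusted p = 0.00931), and was at 131 ± 15.5 in RNF138fl/fl organoids (log2 fold change from CAC 3.11, adjusted p = 4.10e-05). In RNF138-/- it had 6.66 ± 2.12 CPM in colitis and 52.7 ± 29.2 in CAC (log2 fold change 2.98, edgeR adjusted p = 0.000102). It had 105 ± 8.19 CPM in RNF138-/- organoids, a difference from CAC that did not pass (log2 fold change 0.99, adjusted p = 0.0590). Between genotypes it had 15.0 ± 9.003 against 52.7 ± 29.2 CPM in CAC, which did not pass (log2 fold change 1.76, edgeR adjusted p = 0.11). Of the receptor cluster on chromosome 1, *Il1rl2*, the IL-36 receptor, rose with the RNF138-/- label in the organoids (log2 fold change 1.54, edgeR adjusted p = 0.00358), as did its neighbour *Il1r1*, while *Il1rl1* (0.98, adjusted p = 0.00921) and *Il18rap* (0.82, adjusted p = 0.0157) were below 2-fold and *Il18r1* did not pass (0.72, adjusted p = 0.0879). *Sigirr*, an inhibitory receptor of the family, fell in the organoids (-1.01, adjusted p = 0.0136, edgeR). Of 14 adaptors and kinases, 0 were called in colitis (0 at an unadjusted p under 0.05, edgeR) and 0 in the organoids (5 at an unadjusted p under 0.05, as had 7250 of all 15294 genes tested), and in CAC the ubiquitin ligase *Peli2* was lower (-1.42, adjusted p = 0.0310). The *Peli2* call was lost with the covariate of Y-linked genes and without CAC RNF138-/- replicate 1 or 2, where 0 genes in all were called.

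**Figure D5:**
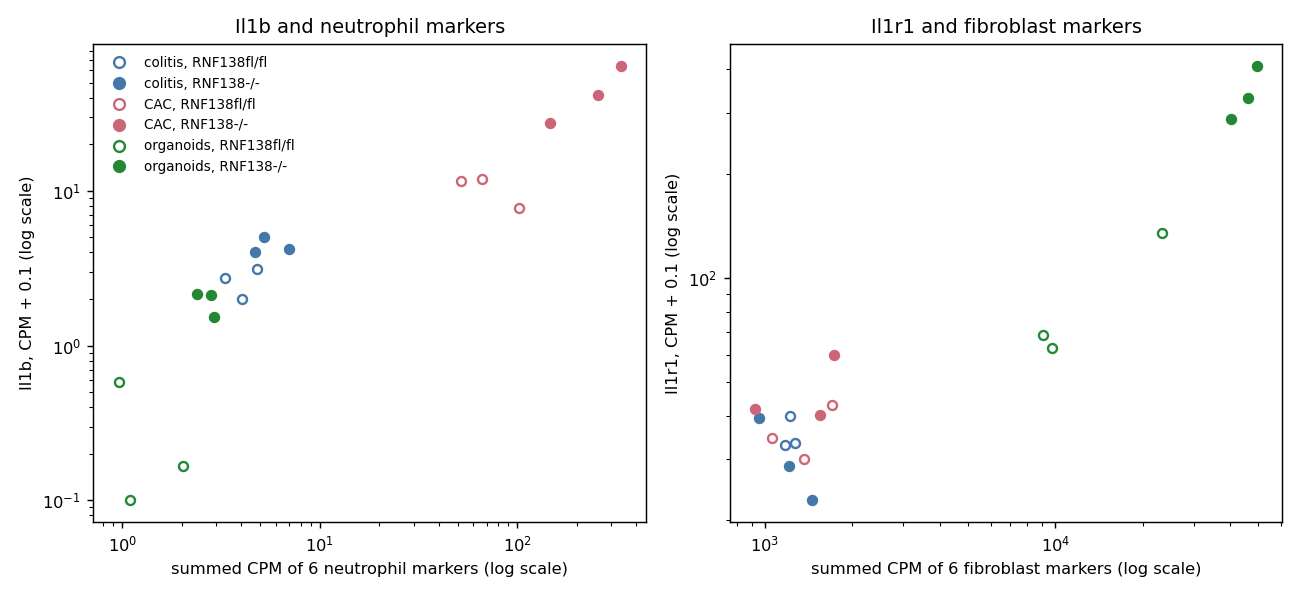
Each of 18 libraries by the summed CPM of 6 neutrophil markers against Il1b (left) and of 6 fibroblast markers against Il1r1 (right), both axes on a log scale with 0.1 added to the gene's CPM. The CAC libraries labelled RNF138-/- had the highest neutrophil sums (147 to 335 CPM) and Il1b, and the organoids labelled RNF138-/- the highest fibroblast sums (40427 to 49682 CPM) and Il1r1.

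Deviations from the group mean of log2 CPM were compared over the 12 tissue libraries, which come in 4 groups of 3, among 12360 genes. The genes closest to *Il1b* were *Smcr8* (Pearson r 0.931), *Mmp10* (0.929) and *Tex2* (0.923), those closest to *Il18* were *Catsperd* (0.970), *Rnf145* (0.970) and *Zranb3* (0.968), and those closest to *Il1rl1* were *Psat1* (0.949), *Rangap1* (0.943) and *Cacybp* (0.942). Among the members themselves, *Il18* and *Il1rn* deviated most alike (0.648) and *Il1r1* and *Il1rl1* most oppositely (-0.579). These are descriptions over 12 libraries, chosen as the highest of many.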

How the data were processed

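The authors deposited 1 table of raw gene counts for 18 RNA-seq libraries. Per the submitters' processing notes, reads were aligned with STAR (2.6.1d) to mm10 and counted with HTSeq (0.11.2). The setting for strand is not given in the sources used here. The table holds 36757 genes, and identifiers were matched by base ID to the mm10 annotation used for positions and lengths (99.84% matched). No library repeated another of its own group within sampling noise.

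The members and the pathway and marker lists were chosen with earlier results of these data known. Within each model, genotypes were compared by edgeR's quasi-likelihood test (edgeR 4.0.16, R 4.3.3) with TMM scaling and edgeR's filter on low counts. Comparisons between models and differences of genotype effects came from 1 fit of all 18 libraries. Adjusted p-values are Benjamini-Hochberg values over all genes tested, and calls also needed a 2-fold change. SEs are on the log2 scale. Printed CPM values use the TMM factors of all 18 libraries, so within-model fold changes can differ slightly from their quotients. The scripts were tested on simulated data. Pathway genes were named, up to 3 a list and direction, from those called with a group mean of at least 5 CPM, and genes alike to a member as the 3 with the highest r.

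Replicate numbers counted as paired in colitis, where deviations from the group means of same-numbered libraries correlated at 0.261, 0.114 and 0.531. Replicates 1 and 2 correlated more highly there with a library of another number (0.279 and 0.244). Replicate numbers were not counted as paired in CAC, where the values were small (0.0259, 0.224 and 0.0758). Each of these still exceeded the best value with another number (0.00685, -0.0784 and 0.0565). Nor were they counted as paired in the organoids (-0.214, -0.0914 and 0.0729). Whether the numbers mark pairs is thus uncertain in both tissues, and the main tests were unpaired. Alternatives were RLE size factors, library totals alone, no filter, DESeq2 (1.42.0), the replicate block, a covariate of Y-linked genes in tissue, 1 fit of all libraries, and leaving out each library in turn.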

Additional observations from a re-analysis of the deposited data

Results flagged for a closer look

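For 1 member in each case, the effect of the RNF138-/- label differed between models by the interaction test of edgeR. *Il18bp* differed between CAC and colitis, with a log2 fold change of 0.96 in colitis and -0.34 in CAC (difference -1.25, adjusted p = 0.0484). That call was lost in most fits with a tissue library left out, and with totals, no filter or the replicate block, as given above. *Il1r1* differed between organoids and CAC, at 1.91 in the organoids and 0.35 in CAC (difference 1.55, adjusted p = 0.0104).

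Among the genes named from the pathway lists, the same test gave a difference between CAC and colitis for *Nlrp1b* (-2.27, adjusted p = 0.0151), *Casp4* (-2.18, 0.0332), *Pycard* (-1.92, 0.00974), *Peli2* (-1.01, 0.0257), *Zc3h12a* (-2.31, 0.0394) and *Lif* (1.59, 0.0487). The difference was negative for all but *Lif*. *Pycard* (-1.86) and *Peli2* (-1.42) were called lower in CAC and not called in colitis (0.11 and -0.36). Between organoids and CAC the difference was positive for *Nlrp6* (3.46, adjusted p = 0.0133), *Nlrp1b* (2.33, 0.0411), *P2rx7* (2.23, 0.000339), *Peli2* (1.81, 0.000535), *Nfkbiz* (1.81, 0.0376) and *Ptges* (1.16, 0.0426). It was negative for the ligand gene *Il33* (-2.12, 0.0219), for *Lcn2* (-2.93, 0.00577) and for the chemokine *Cxcl2* (-1.80, 0.0309). *Nlrp1b* averaged only 0.208 CPM in RNF138fl/fl and 0.259 in RNF138-/- organoids. *Nlrp6* averaged 2.17 CPM (from 0.231) and 4.78 there. Both differences thus rest on few organoid counts. Smooth muscle, B cell and epithelial markers moved with the label in CAC, and fibroblast markers and sex-linked genes with it in the organoids, and their part in these differences was not tested.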

How the results depend on the processing

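Over 1031 values of single members under other settings, 933 kept their direction and side of the thresholds, 35 lost a call, 19 gained one and 44 changed sign, the last all not called, at sizes up to 0.39 on the log2 scale. The count of members called between genotypes in CAC was 2 with library totals alone, DESeq2 or 1 fit of all libraries (*Il1b* and *Il1r2* each time), 0 with the Y-linked covariate, and 0 to 2 with a library left out. In colitis it was 0 to 1 with a library left out, and the 1 was *Il18*. The difference of genotype effects between CAC and colitis was called for 0 members with library totals alone, no filter or the replicate block, and for 0 to 1 with a library left out. That between organoids and CAC was called for 1 to 2, the second being *Il1b* without organoid RNF138fl/fl replicate 2. The cause of these changes was not tested.

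Signs changed for these log2 values, with ranges over the libraries left out. Between genotypes they were *Il1rl1* in colitis (-0.029 with the replicate block, -0.21 with the Y-linked covariate, -0.26 to 0.50), *Il1rap* in colitis (-0.62 to 0.064), *Il18* in CAC (0.12 with totals, 0.15 with the block, -0.49 to 0.39), *Il1rn* in CAC (0.19 with totals, 0.0038 with the block, 0.0065 in 1 fit, -0.31 to 0.39) and *Il1r2* in the organoids (-0.074 to 0.98). From colitis to CAC in RNF138fl/fl they were *Il1rap* (0.066 with totals, 0.0020 with the block, -0.15 to 0.13) and *Il1r1* (-0.17 to 0.10), and from CAC tissue to RNF138fl/fl organoids *Il1a* (-0.16 to 0.95). For organoids minus CAC they were *Il18bp* (0.040 with RLE factors, 0.045 with DESeq2, -0.30 to 0.23), *Il1a* (-0.069 with totals, -0.10 to 1.01), *Il1rn* (-0.10 with totals, -0.10 to 0.60) and *Il1rl1* (-0.30 with totals, -0.093 to 0.59).

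Calls over all genes between genotypes moved by more than 1.5 times in colitis (15, against 29 with totals, 354 without the filter, 326 with DESeq2, 89 with the block and 188 with the Y-linked covariate, and 0 to 147 with a library left out) and in CAC (954, against 1641 without the filter, 2661 with DESeq2, 2834 in 1 fit and 0 with the covariate, and 0 to 1136 with a library left out). In the organoids they fell from 2292 to 1515 without RNF138-/- replicate 2. In CAC the replicate block called *Il1a* (adjusted p = 0.0397) in place of *Il1b* (0.0586). Fewer than 10 counts per library stand behind *Il1a* in colitis, and 0, 6 and 1 counts behind *Il1b* in RNF138fl/fl organoids, so folds of these are imprecise.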
